A study of Homo sapiens with 4 samples.

Results

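The genes described here encode the core machinery that makes microRNAs and carries out silencing: the Argonautes AGO1, AGO2, AGO3 and AGO4, the GW182 proteins TNRC6A, TNRC6B and TNRC6C, the nucleases DICER1 and DROSHA, and the DROSHA cofactor DGCR8. They were chosen by name, and all 21 RefSeq transcripts listed for these 10 genes, of 25995 gene names in the files, were taken. The RNA came from a miRNA pull out assay on DU-145 cells, an epithelial line grown from the metastasis of a prostate carcinoma. The 2 miR-28CT libraries came from cells transfected with 60 nM of an untagged miR-28-5p duplex, and the 2 miR-28BIO libraries from cells given the same dose of duplexes with a biotin at the 3′ end and a thiouridine at nucleotide 8 or 18. Thiouridine crosslinks to RNA beside it under ultraviolet light (365 nm, 2 J/cm2, given 24 h after transfection), and streptavidin beads were then used on 15 µg of total RNA. Both arms had thus received additional miR-28-5p, so neither was free of it, and recovery on the beads cannot be told apart here from the amount of a transcript in the cells. The comparison of miR-28BIO with miR-28CT asks which RNAs the tagged duplex brought down above the background of the beads. In RNA from a whole culture, fewer cells of a type and less RNA per cell cannot be told apart either.

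DROSHA and DGCR8 form the nuclear Microprocessor, which cuts the hairpin precursor out of the primary transcript. DICER1 removes the loop in the cytoplasm, and 1 strand of the resulting duplex is loaded into an Argonaute protein, which then finds its target mRNAs by base pairing with the seed. GW182 proteins bind the Argonaute and recruit the deadenylases through which the target is repressed and degraded. A transfected duplex such as miR-28-5p enters this pathway at the loading step, past DROSHA and DICER1.

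All values are FPKM, fragments per kilobase of transcript relative to the mapped fragments of the library, summed over the transcripts of a gene and divided by a scaling factor of each library. The FPKM rested on totals of about 13000000 to 17900000 reads per library, as the ratio of coverage to FPKM gives it, and 11554 genes had a mean of at least 0.5 and were tested. The epithelial markers KRT8, KRT18, EPCAM and CDH1 were above 0 in all 4 libraries, with summed values of 57.4 and 140 in the miR-28CT libraries and 33.9 and 59.6 in the miR-28BIO libraries. The leukocyte genes PTPRC and CD3E, the endothelial gene PECAM1 and the androgen response gene KLK3 were listed at 0 in all 4, and CD14, VWF, COL1A1 and COL3A1 stayed at or below 0.599. Libraries with the same replicate number resembled each other more than libraries of the same arm: across genes the log2 values correlated with r = 0.83 between the libraries numbered 1 and 0.77 between those numbered 2, against 0.63 within miR-28CT and 0.60 within miR-28BIO.

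Several of the genes have transcripts that differ by whole exons. The 2 DGCR8 records, NM_022720 with 4520 bases and NM_001190326 with 4421, differ by 99 bases. In GENCODE 44, the pair of DGCR8 transcripts whose internal exons differ by that amount differs in exon 8 of 14, which is coding throughout (33 codons) and lies on the plus strand of hg38 at chr22:20092809-20092907. It is shown because DGCR8 was assigned to 1 record or the other as a whole, with no base set in capitals. Reads over the exon were not examined, since values are given per record only. The records were matched to exons by the difference in length alone.
DGCR8 exon 8: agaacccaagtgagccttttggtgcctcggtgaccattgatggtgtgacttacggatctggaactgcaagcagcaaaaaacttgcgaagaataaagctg
In the same way, the TNRC6B records NM_001162501 (18280 bases) and NM_015088 (17950 bases) differ by 330 bases. The pair of GENCODE 44 transcripts whose internal exons differ by that amount differs in exons 6 and 11 of 23, with 53 and 57 codons. They lie on the plus strand at chr22:40270122-40270280 and chr22:40281119-40281289 and are shown because TNRC6B moved between these records from library to library.
TNRC6B exon 6: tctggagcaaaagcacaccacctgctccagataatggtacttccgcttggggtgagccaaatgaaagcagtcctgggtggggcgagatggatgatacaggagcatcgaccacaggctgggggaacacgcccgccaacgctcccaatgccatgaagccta
TNRC6B exon 11: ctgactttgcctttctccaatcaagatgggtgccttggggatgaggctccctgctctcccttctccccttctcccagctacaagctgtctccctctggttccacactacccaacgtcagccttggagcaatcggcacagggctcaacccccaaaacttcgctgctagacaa

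All 10 genes were detected in all 4 libraries, and their levels spread over more than an order of magnitude. By the mean of the 4 libraries, on the scaled FPKM scale, DROSHA was highest with 10.8 ± 6.85 (SD, n = 4), followed by DICER1 with 9.88 ± 4.97 and AGO2 with 7.86 ± 3.13. TNRC6A (5.29 ± 2.44), DGCR8 (4.22 ± 0.872), TNRC6B (3.36 ± 1.70), AGO3 (3.14 ± 0.544), AGO1 (2.69 ± 1.34) and AGO4 (2.24 ± 0.634) came next. The order changed from library to library: DICER1 was highest in miR-28CT replicate 1, DROSHA in miR-28BIO replicate 1 and AGO2 in both libraries numbered 2, and in miR-28CT the mean of DICER1 (10.8) was above that of DROSHA (7.57). The ranges of each neighbouring pair in this order overlapped, so none of these neighbours differed beyond the spread of the libraries. TNRC6C was the exception, with 0.554 ± 0.140, lowest of the 10 genes in every library and with its highest value (0.738) under the lowest value of AGO4 (1.50). The median over all genes tested was 4.18, and 5 of the 10 genes lay above it. TNRC6C was close to the limit of 0.5 for testing and passed it only through the miR-28BIO libraries, where its mean was 0.653 against 0.455 in miR-28CT. The gene values rested on 43.8 to 2944 estimated reads per library, with the fewest for TNRC6C in miR-28CT replicate 2 and the most for DICER1 in miR-28CT replicate 1.

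**Figure D1:**
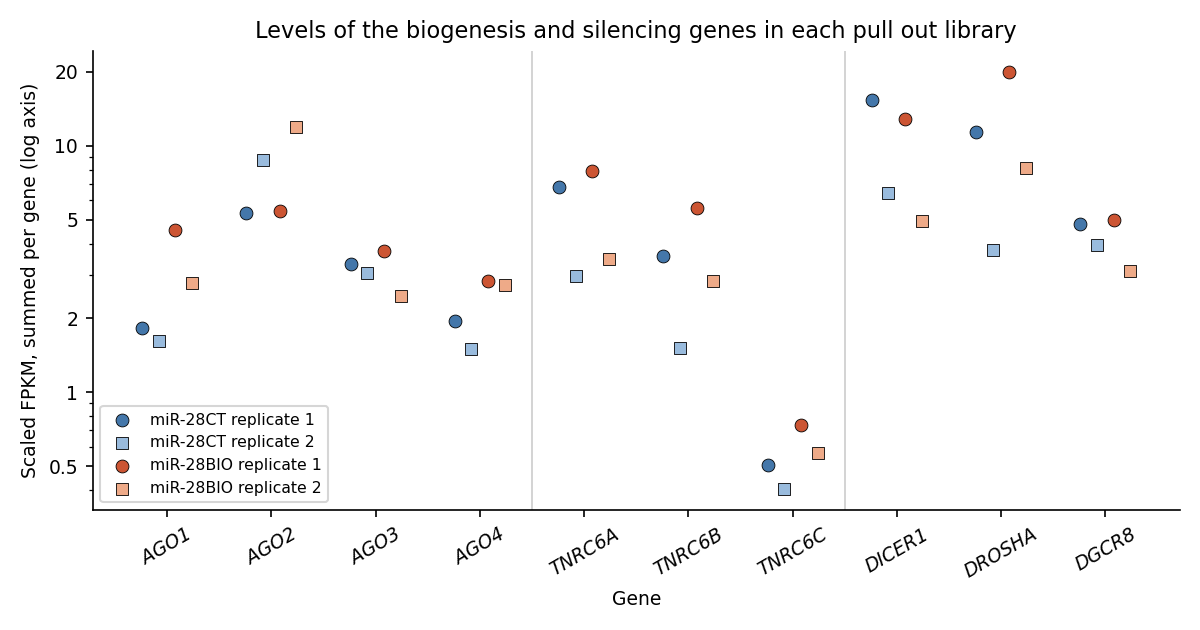
Scaled FPKM per gene (log axis) in each of the 4 libraries, with miR-28CT in blue, miR-28BIO in red, circles for the libraries numbered 1 and squares for those numbered 2, and vertical lines between the Argonautes, the GW182 genes and the processing genes. Both miR-28BIO values are above both miR-28CT values for AGO1, AGO4 and TNRC6C, and the circles lie above the squares for AGO3, TNRC6A, TNRC6B, DICER1, DROSHA and DGCR8.

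No gene of the machinery differed between the arms by limma's test on log2(scaled FPKM + 0.1), in which all 10 had an adjusted p of 1.00 after the Benjamini-Hochberg correction over all genes tested. Of all genes tested, 0.026% were called, that is, 3 genes, all lower in miR-28BIO, and with the replicate number as a block 61 were, 39 higher and 22 lower. The 3 genes were SNORD12C, SNORD57 and SNORD58A, small nucleolar RNAs named after their values were seen, which were listed at 0 in both miR-28BIO libraries. At an unadjusted p under 0.05 the counts were 0 of the 10 genes and, over all genes, 259 higher and 97 lower in miR-28BIO. That balance depended on the setting, with 265 and 53 for FPKM as deposited and 1170 and 1760 with a replicate block. With that block 4 of the 10 genes (DROSHA, AGO1, TNRC6B and AGO4) had an unadjusted p under 0.05, as had 25.4% of all genes tested. The log2 differences of the 10 genes, miR-28BIO minus miR-28CT, ran from -0.30 to 1.01 with a median of 0.34, against a median of -0.08 and quartiles of -0.48 and 0.30 over all genes tested. The standard errors of this fit, which has no block for the replicate number, were 0.41 to 0.81, and with the number as a replicate block they were 0.16 to 0.22 for 9 of the 10 genes and 0.53 for TNRC6C. With that block, too, none of the 10 genes was called (lowest adjusted p of 0.093 by limma). The sign of the difference turned when 1 of certain libraries was left out for AGO2, AGO3, TNRC6A, DICER1 and DGCR8, and did not for the other 5 genes.

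The arms did not overlap for AGO1 and AGO4, both higher in miR-28BIO, and for no gene was miR-28CT the higher arm. The values of TNRC6C did not overlap either, but as it passed the limit for testing only through miR-28BIO, the arm in which it was higher, this is given as a description. Without TNRC6C, which a required mean of at least 2 also leaves out, 2 of 9 genes were separated. Over all genes tested, both miR-28BIO values lay above both miR-28CT values in 12.3%, and below them in 12.6%. Among the genes of 5001 to 8000 bases, to which AGO1 and AGO4 belong by their listed records, these shares were 21.2% and 4.77%. With FPKM as deposited, the genes with separated arms were split 1800 higher to 977 lower in miR-28BIO, in place of 1424 to 1459, and the median over all genes moved from -0.08 to 0.08. Leaving TNRC6C out, AGO1 and AGO4 were the separated genes of the machinery in both settings, with miR-28BIO higher. When 1 library was left out, 6 of the 10 genes were separated without miR-28CT replicate 1, 5 without miR-28CT replicate 2, 7 without miR-28BIO replicate 1 and 8 without miR-28BIO replicate 2, as fewer libraries leave fewer chances to overlap. Over all genes tested the shares were then 70.8%, 57.9%, 53.5% and 65.0% in the same order, and the counts of the machinery lay on either side of them. TNRC6C is in each of these counts of the machinery, although it passed the limit for testing only through miR-28BIO. All separated genes of the machinery were then higher in miR-28BIO, except 1 without miR-28CT replicate 2 and 3 without miR-28BIO replicate 1. Of the separated genes among all those tested, 45.4%, 46.1%, 46.8% and 46.3% were higher in miR-28BIO, with the libraries left out in the same order.

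The Argonautes bind the guide strand and are the proteins in which miR-28-5p acts. AGO1, on the plus strand of chromosome 1 (35883209 to 35924298 in hg38, as listed), had scaled FPKM of 1.83 and 1.61 in miR-28CT and of 4.54 and 2.78 in miR-28BIO. Both miR-28BIO libraries were above both miR-28CT libraries, and the difference of 1.01 (log2, SE 0.46, 95% interval -0.25 to 2.27, unadjusted p = 0.090 by limma) was the largest of the 10 genes. AGO4, whose gene precedes AGO1 on the same strand (35808227 to 35857889), gave 1.94 and 1.50 in miR-28CT and 2.82 and 2.71 in miR-28BIO. Again the arms did not overlap, with a difference of 0.67 (log2, SE 0.41, 95% interval -0.46 to 1.80).

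AGO3 follows AGO1 on chromosome 1 (35931082 to 36056462), and its values were 3.33 and 3.04 in miR-28CT and 3.74 and 2.45 in miR-28BIO. The miR-28BIO values lay on either side of the miR-28CT values, and the log2 difference was -0.07 (SE 0.43). It was -0.13 with the median of genes of similar length taken off and 0.10 with FPKM as deposited. The 3 neighbouring genes thus had arms that separated for AGO4 and AGO1 and overlapped for AGO3, a difference between genes that was not tested.

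AGO2, the Argonaute that can itself cleave a target, lies on the minus strand of chromosome 8 (140531165 to 140635547) and was the most abundant Argonaute in each library. Its scaled FPKM was 5.34 and 8.72 in miR-28CT and 5.45 and 11.9 in miR-28BIO. The arms overlapped, and the libraries numbered 2 were above those numbered 1 in both arms, by 0.70 and 1.11 on the log2 scale. The difference between the arms was 0.24 (log2, SE 0.60, 95% interval -1.42 to 1.90), and it was -0.11 without miR-28CT replicate 1 and -0.32 without miR-28BIO replicate 2. Of the summed Argonaute values, AGO2 made up 43.0% and 58.6% in the miR-28CT libraries and 32.9% and 60.0% in the miR-28BIO libraries. AGO1 made up 14.7% and 10.8% in miR-28CT and 27.4% and 14% in miR-28BIO, so its arms overlapped as a share although they did not as a level.

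The listed Argonaute records were shorter than the canonical GENCODE 44 transcripts for AGO2 (3500 against 14595 bases), AGO3 (3645 against 19660) and AGO1 (7478 against 13712), whereas those of AGO4 were close (7060 against 7272). Reads from sequence outside the listed records do not enter the FPKM. No stretch of 50 bases, the read length, was shared between any of the 10 canonical transcripts. In AGO3, 1.73% of the stretches also occurred in transcripts of other genes, and in DGCR8 1.68%, all in the hairpins MIR3618 and MIR1306, which lie in its transcript and were listed at 0 with the status LOWDATA. The share was 0.263% or less for the other genes.

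The GW182 proteins are the scaffolds between Argonaute and the deadenylases. TNRC6A (chromosome 16, plus strand, 24729728 to 24826226) had scaled FPKM of 6.82 and 2.97 in miR-28CT and 7.90 and 3.48 in miR-28BIO. The arms overlapped, since both libraries numbered 1 were above both numbered 2, and the log2 difference was 0.22 (SE 0.69), with 0.21 between the libraries numbered 1 and 0.22 between those numbered 2. TNRC6B (chromosome 22, plus strand, 40177925 to 40335808 for its longest record) had 3.56 and 1.51 in miR-28CT and 5.57 and 2.82 in miR-28BIO. Here too the order by replicate number prevailed, and the log2 difference was 0.75 (SE 0.65, 95% interval -1.06 to 2.55), with 0.63 and 0.86 between the libraries numbered 1 and 2.

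TNRC6C (chromosome 17, plus strand, 78004237 to 78108835) had 0.505 and 0.404 in miR-28CT and 0.738 and 0.567 in miR-28BIO. Both miR-28BIO values were the higher ones, with a log2 difference of 0.44 (SE 0.69, 95% interval -1.46 to 2.34) at the lowest level of the 10 genes. TNRC6A took the largest share of the summed GW182 FPKM in each library, from 50.7% to 62.6%, and TNRC6C the smallest, from 4.64% to 8.29%.

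DICER1 (chromosome 14, minus strand, 95086228 to 95158010), the cytoplasmic nuclease, had scaled FPKM of 15.3 and 6.41 in miR-28CT and 12.9 and 4.97 in miR-28BIO. It was the gene with miR-28BIO below miR-28CT under both replicate numbers, with log2 differences of -0.25 and -0.36, but the arms overlapped widely (difference -0.30, SE 0.75, 95% interval -2.38 to 1.78). The antisense gene DICER1-AS1 was listed at 0.202 to 0.862 FPKM as deposited, and although the libraries were made with a stranded total RNA kit, the strand setting of the alignment and of the estimate was not given in the sources used here. DROSHA (chromosome 5, minus strand, 31400495 to 31532175), the nuclear nuclease, had 11.3 and 3.79 in miR-28CT and 20.0 and 8.16 in miR-28BIO. Its values differed more between replicates than between arms: the log2 difference was 0.95 (SE 0.81, 95% interval -1.28 to 3.18), with 0.81 and 1.09 within the numbers 1 and 2, and replicate 2 minus replicate 1 was -1.56 in miR-28CT and -1.28 in miR-28BIO.

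DGCR8 (chromosome 22, plus strand, 20080232 to 20111877), which holds the primary transcript for DROSHA, had 4.83 and 3.97 in miR-28CT and 4.99 and 3.10 in miR-28BIO. The arms overlapped, with a log2 difference of -0.15 (SE 0.45, 95% interval -1.40 to 1.10) that was 0.02 with FPKM as deposited. The level of DROSHA over that of DGCR8, both per length, was 2.35 and 0.955 in the miR-28CT libraries and 4.01 and 2.63 in the miR-28BIO libraries. The ratio was higher in both miR-28BIO libraries, a comparison chosen after the values were seen and given with no test.

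**Figure D2:**
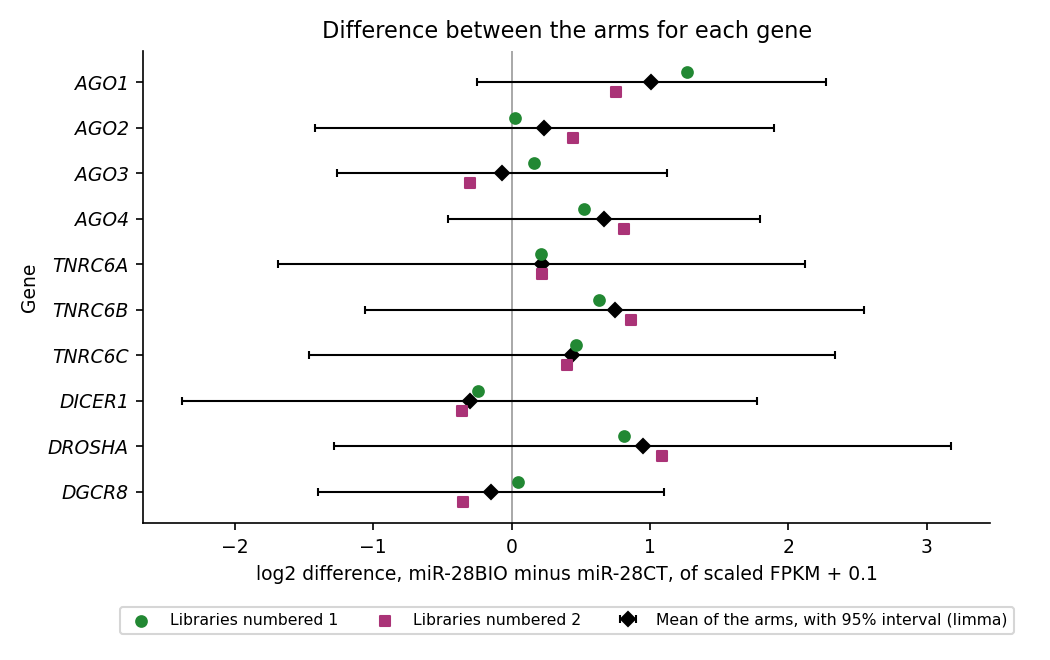
Log2 difference between the arms for each gene, miR-28BIO minus miR-28CT: diamonds give the mean with the 95% interval of limma, circles the difference between the libraries numbered 1 and squares that between the libraries numbered 2. Every interval crosses 0, and for 7 genes both the circle and the square lie above 0, among them TNRC6C, which passed the limit for testing only through miR-28BIO.

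More of these genes were ordered by replicate number than by arm, and so were all genes tested, with arms separated in 12.3% and 12.6%. The libraries numbered 1 were both above those numbered 2 for 6 genes, AGO3, TNRC6A, TNRC6B, DICER1, DROSHA and DGCR8, against 32.9% of all genes tested. The opposite order held for AGO2 alone of the 10 genes, against 34.3% of all genes. In the 3 length classes that hold the 10 genes, replicate 2 minus replicate 1 had medians of -0.22, -0.39 and -0.55 in miR-28CT. In miR-28BIO these medians were -0.18, -0.32 and -0.49. The median absolute log2 difference between the replicates of an arm was 0.69 for the 10 genes, and that between the arms within a number was 0.43, against 0.84 and 0.43 over all genes tested. Within a number, 7 genes were higher in miR-28BIO under both numbers (AGO1, AGO2, AGO4, TNRC6A, TNRC6B, TNRC6C and DROSHA), DICER1 was lower under both, and AGO3 and DGCR8 changed sign. TNRC6C is counted here as a description only, since it passed the limit for testing only through miR-28BIO. Over all genes tested, 30.3% were higher under both numbers and 39.3% lower, and in the 3 length classes that hold the 10 genes, described with the lengths, the share higher under both was 35.7%, 50.4% and 66.5% from the shortest to the longest. What the numbers stand for beyond a replicate of the experiment was not given in the labels.

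At the transcript level the estimates were less stable than the gene sums. Of the 21 transcripts, all with the status OK, 4 were listed at 0 in all libraries: NM_001164623 of AGO2, NM_177422 of AGO3, and NM_001195573 and NM_177438 of DICER1. A further 10 were above 0 in some libraries and listed at 0 in others, and 7 were above 0 in all. AGO1, AGO4 and TNRC6A have 1 listed record each (NM_012199, NM_017629 and NM_014494), and AGO2 and AGO3 were carried by NM_012154 and NM_024852 alone, so for these 5 genes the gene value is that of 1 transcript.

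The 5 other genes moved between records. DGCR8 was assigned wholly to NM_001190326, which by its length lacks exon 8, in miR-28CT replicate 1 (4.83) and wholly to NM_022720 in the other libraries, with 3.97 in miR-28CT replicate 2 and 4.99 and 3.10 in miR-28BIO. The gene sums of these libraries were similar, so the change of record came with little change of level. TNRC6B was on NM_015088, by its length without exons 6 and 11, in miR-28CT replicate 1 (3.56) and on NM_001162501, by its length with them, in miR-28CT replicate 2 (1.51). In miR-28BIO replicate 1 it was split 82.5% to NM_015088 and 17.5% to NM_001024843, and in replicate 2 55.5% to NM_015088 and 44.5% to NM_001162501.

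TNRC6C was on NM_018996 except in miR-28CT replicate 2, where NM_001142640 took the whole value of 0.404. DICER1 was carried mainly by NM_001291628, with 100% of the gene in miR-28CT replicate 1 and miR-28BIO replicate 1, 86.2% in miR-28CT replicate 2 and 49.3% in miR-28BIO replicate 2. NM_030621 held 13.8% and 29.0% in those last 2 libraries, and NM_001271282 held 21.7% in miR-28BIO replicate 2. For DROSHA, NM_013235 had 9.42 and 1.32 in miR-28CT and 20.0 and 7.35 in miR-28BIO, and NM_001100412 had 1.92 and 2.48 in miR-28CT and 0 and 0.810 in miR-28BIO. NM_001100412 was thus the higher in miR-28CT in both libraries, whereas the values of NM_013235 overlapped between the arms.

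**Figure D3:**
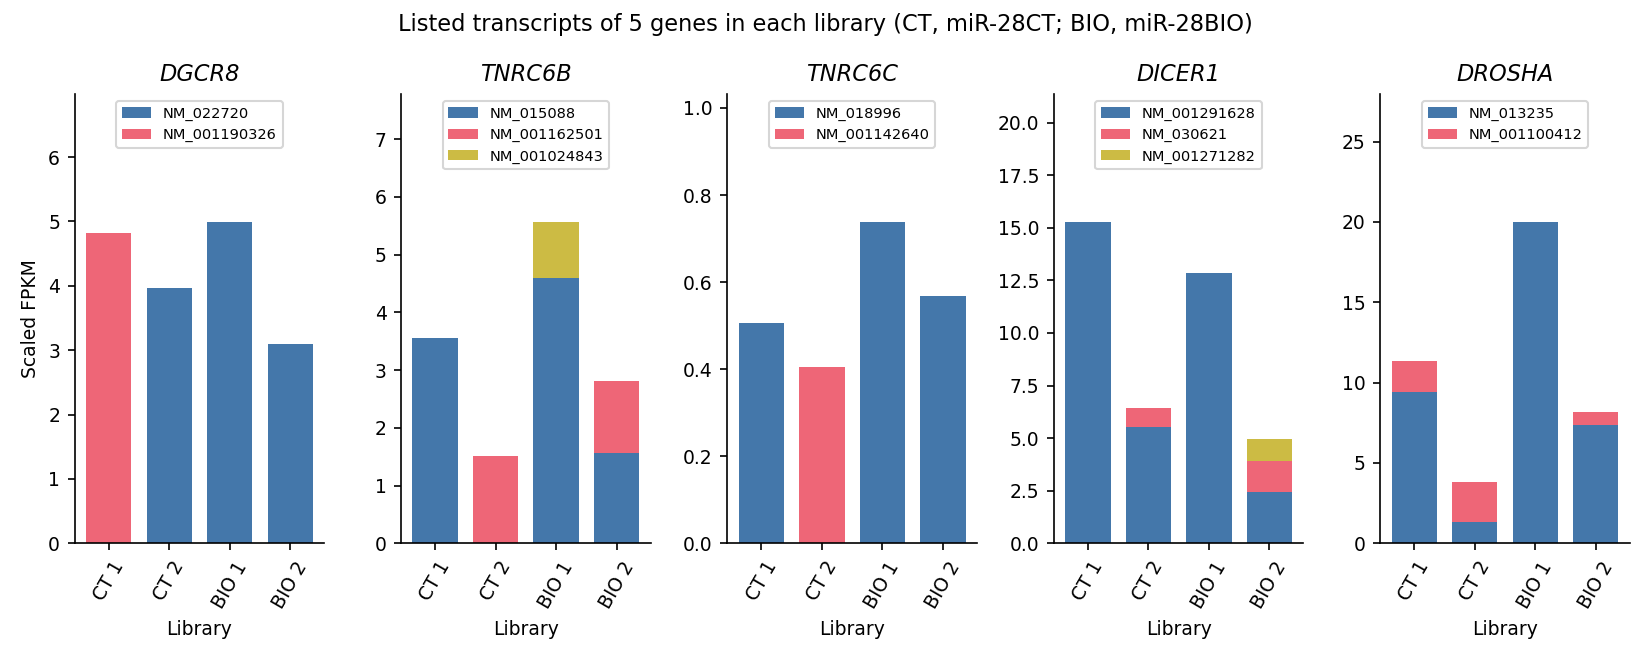
Scaled FPKM of the listed transcripts of 5 genes in each library, stacked so that the height of a bar is the gene sum. DGCR8 changes record in miR-28CT replicate 1 and TNRC6C in miR-28CT replicate 2, while TNRC6B, DICER1 and DROSHA are split differently from library to library.

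A mean of at least 0.5 was reached by 13 of the 21 transcripts, and limma called 0 of them (adjusted p of 1.00 for each), as it called 0.0% of all 15587 transcripts tested. At an unadjusted p under 0.05 it gave 325 transcripts higher and 232 lower in miR-28BIO over the whole table, and 760 and 1112 with a replicate block. Arms were separated with miR-28BIO higher for 2 of the 13, the single records of AGO1 and AGO4, against 11.5% of all transcripts. Over all transcripts 12.0% had miR-28CT higher. The values of NM_001100412 of DROSHA lay in that order too, but it passed the limit for testing only through miR-28CT, so this is given as a description. Its log2 difference was -2.92 (SE 1.45), which depends on the value added before the logarithm because 1 library was at 0.

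The 10 genes have long mRNAs, from 3500 to 17950 bases by the most abundant listed record, and all are longer than the median of 2807 bases over the genes tested. Over all genes tested, the difference between the arms rose with this length. Its median was -0.75 for the 1216 genes of up to 1000 bases, -0.39 from 1001 to 2000, -0.16 from 2001 to 3000, 0.02 from 3001 to 5000, 0.16 from 5001 to 8000 and 0.25 for the 561 genes over 8000 bases. The same order was found within each replicate number. The replicates differed with length too: replicate 2 minus replicate 1 had a median of 1.21 in miR-28CT and 1.04 in miR-28BIO for the shortest genes, and of -0.55 and -0.49 for the longest. Arms separated with miR-28BIO higher made up 4.52% of the shortest class and 28% of the longest.

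Set against the median of their own length class, AGO1 was higher by 0.85, DROSHA by 0.79, AGO4 by 0.51, TNRC6B by 0.49, AGO2 by 0.22 and TNRC6C by 0.19 on the log2 scale. The other 4 genes were below their class, with differences from it of -0.03 for TNRC6A, -0.09 for AGO3, -0.17 for DGCR8 and -0.55 for DICER1. With the class median taken off in each library, a setting chosen after seeing the data, the median difference of the 10 genes was 0.16 in place of 0.34, and the arms of AGO1 and AGO4 were separated while those of TNRC6C were not. The part of length in the differences of single genes was not tested.

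**Figure D4:**
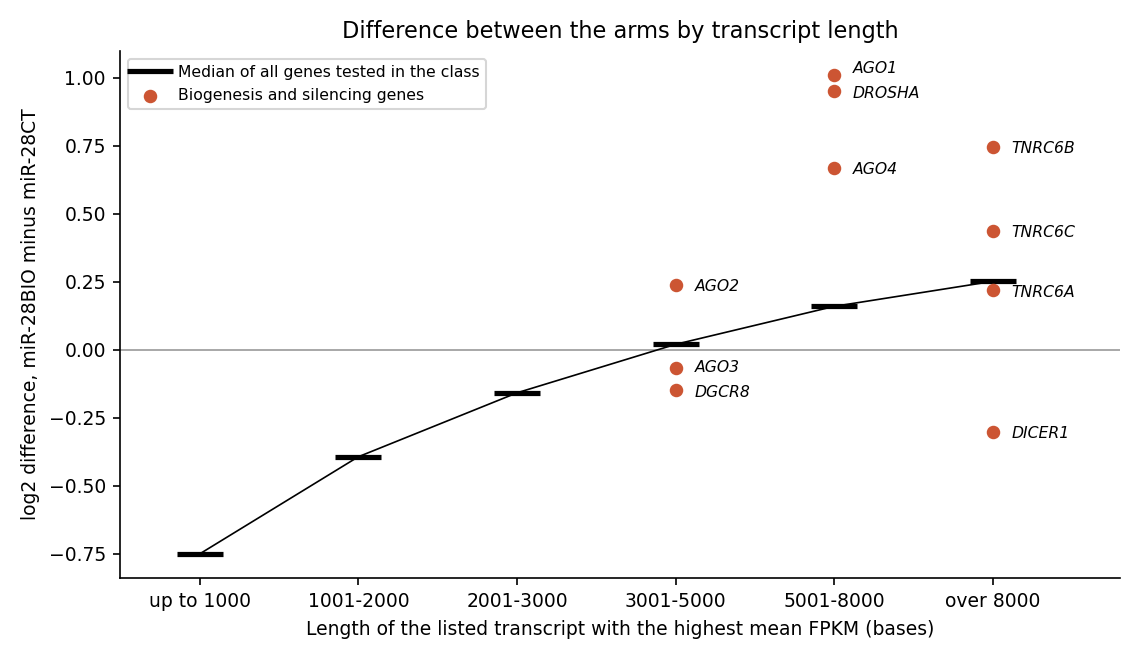
Log2 difference between the arms by the length of the most abundant listed transcript, with black bars for the median of all genes tested in each of 6 length classes and red points for the 10 genes. The medians rise from -0.75 to 0.25, and 6 of the 10 genes lie above the median of their class by listed length. The listed records of AGO1, AGO2 and AGO3 are shorter than their canonical transcripts.

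The machinery works with many partners, and 60 further genes in 8 roles were examined, of which 51 could be tested. None was called by limma (lowest adjusted p of 1.00), and 2 had an unadjusted p under 0.05, CNOT9 and DCP1A, as had 3.08% of all genes tested. With a replicate block 14 of the 51 had one, against 25.4% of all genes tested, and the lowest adjusted p by limma was 0.072. Arms were separated with miR-28BIO higher for 6 of the 51 genes and with miR-28CT higher for 4, near the 12.3% and 12.6% over all genes tested, and the median log2 difference was -0.10, close to the -0.08 over all genes. That median turned to 0.21 without miR-28CT replicate 1 and without miR-28BIO replicate 2, where it was -0.05 and -0.04 over all genes. Of the 9 genes not tested, DDX17 had a record without the status OK, and CNOT3, TRIM71, LIN28A and LIN28B were below the limit. LSM14A and PARN were listed at 0 in all libraries, and CNOT6 and GIGYF1 were not matched to a record by name.

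Among the 11 tested genes of the CCR4-NOT and PAN deadenylases, which shorten the poly(A) tail of silenced mRNAs, 3 had separated arms with miR-28BIO higher and none the reverse (12.3% and 12.6% over all genes tested), and the median log2 difference was 0.52. That median was the value of PAN3, and the next lower value was -0.14 (CNOT7). CNOT1, CNOT6L, CNOT10 and PAN2 were also lower in miR-28BIO (-0.17, -0.17, -0.43 and -0.39), and the other tested genes of this role were higher. CNOT9, the CCR4-NOT subunit that binds GW182 proteins, had scaled FPKM of 8.06 and 8.70 in miR-28CT and 21.2 and 24.0 in miR-28BIO. The replicates of each arm were close to each other and the arms apart, with the largest rise of the list (1.42 on the log2 scale, SE 0.41, unadjusted p = 0.026 by limma), which did not pass the correction. Among the 9 tested genes of decapping and decay, 2 were separated, both with miR-28BIO higher, and the median was 0.02. DCP1A, an activator of the decapping enzyme, had 3.59 and 3.95 in miR-28CT and 11.8 and 8.72 in miR-28BIO, a log2 difference of 1.41 (SE 0.41, unadjusted p = 0.027 by limma). XRN1, the exonuclease that degrades decapped mRNAs, had 5.72 and 2.78 in miR-28CT and 13.3 and 7.23 in miR-28BIO, a log2 difference of 1.27 (SE 0.60).

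The loading chaperones open Argonaute for the duplex. Of the 4 genes, 2 had separated arms with miR-28CT higher, as had 12.6% of all genes tested, and the median log2 difference was -0.68. PTGES3, the HSP90 cochaperone p23, had 63.5 and 50.8 in miR-28CT and 40.5 and 23.4 in miR-28BIO (log2 difference -0.88, SE 0.55). FKBP4, another HSP90 cochaperone, had 11.1 and 10.5 in miR-28CT and 6.47 and 5.68 in miR-28BIO (log2 difference -0.83, SE 0.40). HSP90AB1 showed the order by replicate number instead, with 314 and 41.5 in miR-28CT and 270 and 46.4 in miR-28BIO. In nuclear processing and export, RAN, the GTPase that drives export of precursors by XPO5, was the 1 separated gene of 5, with 90.9 and 130 in miR-28CT and 55.7 and 54.3 in miR-28BIO (log2 difference -0.98, SE 0.54).

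These named genes also differ in length. By the most abundant record, RAN has 1071 bases, PTGES3 1931 and FKBP4 3741, and the medians of their length classes were -0.39, -0.39 and 0.02. CNOT9 has 3434 bases, DCP1A 5900 and XRN1 10107, with class medians of 0.02, 0.16 and 0.25. In the Dicer partners (2 tested), the translational repressors and poly(A)-binding proteins (5 tested), and the Argonaute-associated proteins (8 tested), no gene had separated arms, and the medians were -0.53, 0.05 and -0.15. In tailing, trimming and turnover, with 7 genes tested, DIS3L2 was the 1 separated gene with miR-28BIO higher and TSN the 1 with miR-28CT higher, and the median was -0.01. Over all genes tested these shares were 12.3% and 12.6%, so roles of this size would hold few separated genes in any case.

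**Figure D5:**
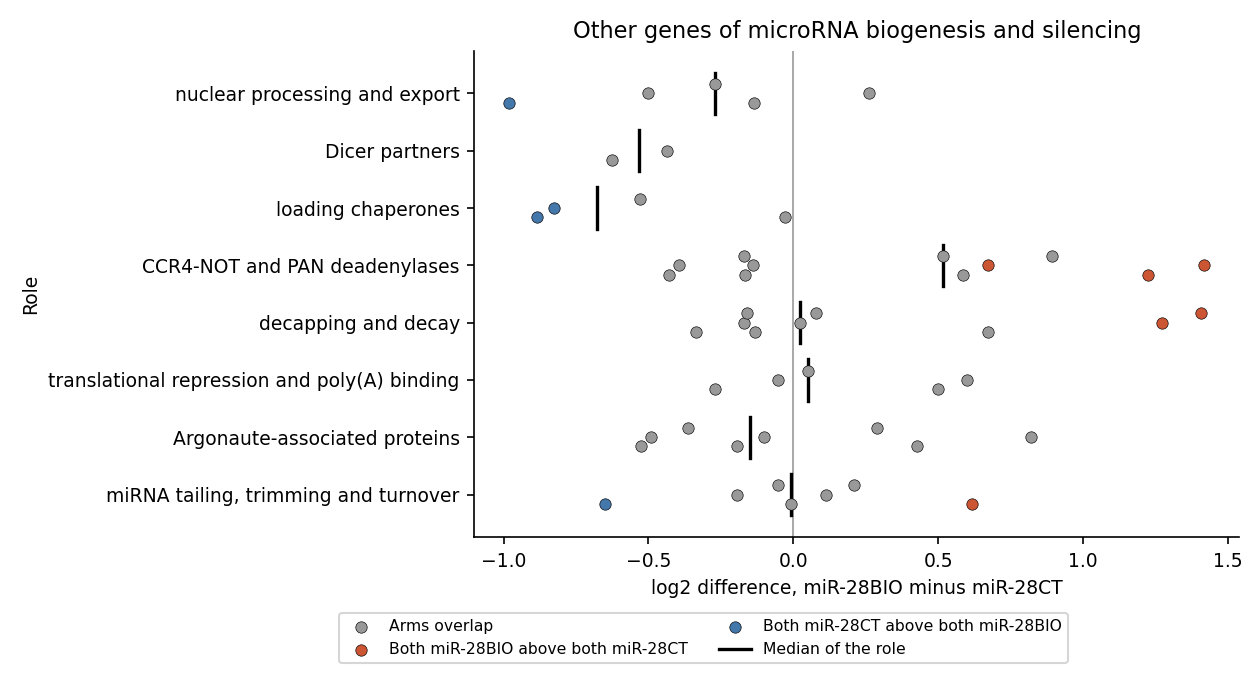
Log2 difference between the arms, miR-28BIO minus miR-28CT, for the 51 further genes tested, by role, with a vertical bar for the median of the role. Red points, with both miR-28BIO values above both miR-28CT values, are found among the deadenylases, decapping and decay, and turnover, and blue points, with the reverse order, among the chaperones, nuclear processing and turnover.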

How the data were processed

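RNA from the pull out assay was sequenced in 4 libraries, 2 per arm, grouped by the sample labels. The submitters' processing notes name FastQC 0.10.1, cutadapt, TopHat2 2.0.9, Cufflinks 2.1.1, Cuffdiff and hg38. The authors deposited FPKM for 53209 RefSeq transcripts per library with a status, and a coverage for each. The deposited coverage, at 50 bases per read, served only to estimate reads. FPKM hold no counts, so Cuffdiff could not be repeated.

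The 52530 transcripts given the status OK in each library were scaled by median-of-ratios factors from the 11650 above 0 in all, summed per gene symbol of the RefSeq table (names were found for 97.9% of the genes tested), kept at a mean of at least 0.5, and tested as log2(value + 0.1) with limma's lmFit and eBayes with trend, without a block, with a threshold of 0.05 after Benjamini-Hochberg. Alternatives were other pseudocounts, filters and scalings, all statuses, no trend, a replicate block, the most abundant transcript and leaving out each library. Fold changes are on that scale and understate changes of low genes. Estimated reads are not independent molecules, and no counting interval was given. Named were the 10 genes, their transcripts with a mean of at least 0.5 and the most abundant 1 of each gene, and the further silencing genes past the threshold and the 3 largest rises and falls with separated arms. The genes closest to AGO2 in pattern, also part of the rule, and 1 marker gene are not reported here. The genes and lists were chosen with earlier results of these data known. Exon sequences and gene models are from GENCODE 44 and hg38. The search for miR-28-5p seed sites that was planned was not run. Scripts were tested on simulated data. R 4.3.3, limma 3.58.1, Python 3.11.15, numpy 2.4.6, pandas 2.3.3 and matplotlib 3.10.9 were used.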

Additional observations from a re-analysis of the deposited data

How the results depend on the processing

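No gene of the machinery was called by limma in the main fit or under any alternative that was tested, and 3 genes of all those tested were called in the main fit. The setting with the length class median taken off gave differences only. TNRC6C had no value with a required mean of at least 2 or by its most abundant transcript. The calls over all genes fell to 0 with a pseudocount of 1, without a filter, without a trend and by the most abundant transcript of each gene. The labels number the replicates alike but do not say what a number marks; the deviations of same-numbered libraries from their arm means correlated with r = 0.61 across genes. With the replicate block, 61 genes were called (39 higher and 22 lower), 0 of the 10 and 0 of the 51 further genes, although 4 of the 10 (DROSHA, AGO1, TNRC6B and AGO4) and 14 of the 51 had an unadjusted p under 0.05, as had 25.4% of all genes tested, and the adjusted p of the 10 were 0.093 to 0.86. The block moved no other call, and transcripts called stayed at 0 throughout.

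With 1 library left out in turn, the lone library of an arm is assumed to vary like the other arm. The median difference of the 10 genes was then 0.16 to 0.69, and 5 to 8 of them, TNRC6C included, had separated arms (53.5% to 70.8% of all genes tested). The median of the further genes was -0.23 to 0.21, against -0.05 to -0.04 over all genes tested, and 29 to 32 of them were separated. With FPKM as deposited the median of the further genes was 0.059, against 0.08 over all genes tested. AGO2 ranged from -0.32 to 0.79, AGO3 from -0.37 to 0.23, TNRC6A from -0.37 to 0.80, DICER1 from -0.98 to 0.37 and DGCR8 from -0.49 to 0.18 when 1 library was left out, which also leaves the replicate numbers unequal between the arms. Within each number the sign was the same for AGO2, TNRC6A and DICER1 and differed for AGO3 and DGCR8. AGO3 was 0.10 and DGCR8 0.016 with FPKM as deposited, TNRC6A was -0.071 with the length class median taken off, chosen after seeing the data, and DGCR8 was 2.66 by its most abundant transcript alone, which miR-28CT replicate 1 lists at 0. AGO1, AGO4, TNRC6B, TNRC6C and DROSHA kept their direction under every alternative that gave a value for them, but not their size: without 1 library AGO1 ranged from 0.67 to 1.35, AGO4 from 0.49 to 0.84, TNRC6B from 0.15 to 1.34, TNRC6C from 0.27 to 0.60 and DROSHA from 0.17 to 1.73, and by the most abundant transcript TNRC6B was 2.21 and DROSHA 1.74. The direction of TNRC6C is given as a description, since it passed the limit for testing only through miR-28BIO.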
